A study of Mus musculus with 12 samples.

Results

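Wnt signalling was followed through 9 genes, the ligands Wnt8b, Wnt7a and Wnt7b, the secreted inhibitors Frzb and Sfrp1, the DNA-binding factors Lef1, Tcf7l1 and Tcf7l2 and the feedback target Axin2. They were taken by symbol and were all found among the 27998 genes of the single-cell tables and, by Entrez identifier, among the 40814 rows of the neurosphere table. The study deleted Larp7, a protein of the 7SK particle that holds the transcription elongation kinase P-TEFb inactive, from the mouse brain. Dentate gyri were taken at postnatal day 7 from WT mice (Larp7-floxed, without Cre), and from a pair of conditional mutants. In Larp7 f/f;nestin-Cre mice a nestin transgene drives Cre in neural precursors, and in the Larp7 f/f;Emx1-Cre line Cre is knocked into Emx1, a gene of the dorsal forebrain. Each genotype was 1 single-cell library made from 3 to 4 pooled dentate gyri of littermates. The titles and the genotype entries of the 2 mutant libraries name opposite Cre lines, and the titles were followed here. The library titled Emx1 holds 6821 barcodes in all. That is fewer than the nestin-Cre cells the study used at this age, so its cell counts are compatible with the titles only. Neurospheres were grown from neonatal dentate gyri of WT and Larp7 f/f;Emx1-Cre (Larp7 KO) mice and sampled after 2 days of differentiation on Matrigel with 20 ng/ml bFGF, giving 2 WT and 3 Larp7 KO libraries.

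In the canonical Wnt pathway a secreted Wnt protein binds a Frizzled receptor and an LRP co-receptor, beta-catenin is then spared from degradation, and it enters the nucleus to act with TCF/LEF factors on target genes. Frzb and Sfrp1 are soluble proteins with a Frizzled-like domain that bind Wnt proteins outside the cell, and Axin2 is a scaffold of the beta-catenin destruction complex whose transcription is itself induced by the pathway. In the hippocampus, Wnt8b and other Wnt genes are expressed at the medial edge of the cortex during development, and Lef1 is needed for the formation of dentate granule cells.

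The genes lie at chr19:44493472-44514273 (Wnt8b), chr6:91363981-91411353 (Wnt7a), chr15:85535437-85581821 (Wnt7b), chr2:80411970-80447396 (Frzb), chr8:23411383-23449632 (Sfrp1), chr3:131110297-131224357 (Lef1), chr11:108917828-108950783 (Axin2), chr19:55741797-55933659 (Tcf7l2) and chr6:72626371-72789045 (Tcf7l1) of GRCm38.p6, the assembly also called mm10. RefSeq promoter windows of 300 bases, 250 before and 50 after a start site, were held for 7 of the 9 genes, in 11 windows. They were searched on both strands for CTTTGAA, for CTTTGAT, for CTTTGTA and for CTTTGTT, which are forms of the TCF/LEF recognition sequence. Of the members' windows 2 held such a match, an internal start of Lef1 with CTTTGTA and an internal start of Tcf7l2 with CTTTGTT, while 16.9% of all 32851 windows held at least 1 of the 4 forms. A match describes letters in a window and no more. The 150 bases before the start are given for Axin2, the feedback target, and for both the first and an internal start of Lef1, because Axin2 in nIPC-like and Lef1 in RGL-like cells stood above WT in both mutants below, with counting intervals of the ratio above 0. Sfrp1 in RGL-like cells did so too, but no window of it was held. The only Axin2 start held lies inside the span of the gene given above. All 3 stretches are on the plus strand, overlap no RefSeq exon of their own gene, and are written 5′ to 3′ with the TCF/LEF match in capitals, as the complement of CTTTGTA.
Axin2, chr11:108920199-108920348: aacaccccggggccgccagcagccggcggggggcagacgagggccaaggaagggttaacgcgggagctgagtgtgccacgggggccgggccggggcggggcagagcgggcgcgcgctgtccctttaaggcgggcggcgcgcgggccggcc
Lef1 first start, chr3:131110147-131110296: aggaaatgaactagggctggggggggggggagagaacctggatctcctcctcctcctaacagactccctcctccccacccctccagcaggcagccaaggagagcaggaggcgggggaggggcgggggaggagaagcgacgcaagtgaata
Lef1 internal start, chr3:131156144-131156293: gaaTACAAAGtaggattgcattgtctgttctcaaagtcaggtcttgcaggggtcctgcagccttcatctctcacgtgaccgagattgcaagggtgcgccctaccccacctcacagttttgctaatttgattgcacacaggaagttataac
The windows around this Axin2 start and the first Lef1 start were GC-rich, at 70.0% and 67.3% of bases, and that of the internal Lef1 start had 43.7% GC.

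The WT library differed from both mutant libraries in depth. After the study's filter (more than 500 genes, under 15% mitochondrial UMIs, a UMI being a counted RNA molecule) it held 10997 of 12876 barcodes with a median of 1782 UMIs, against 6685 of 7177 with 3644 in the nestin-Cre library and 6531 of 6821 with 3873 in the Emx1-Cre library. The study states more cells for each library than this filter left here, counts nearer to all barcodes. Cells were gated by detected marker genes, none of them a Wnt gene, and 34.6% of WT cells but 14.8% and 15.8% of mutant cells could not be gated. The gated cells gave 866, 707 and 757 radial glia-like (RGL-like, stem cells of the gyrus), 954, 530 and 795 neuronal intermediate progenitor-like (nIPC-like), 3253, 2956 and 2413 neuroblast-like, 981, 545 and 679 astrocyte-like, 225, 281 and 295 oligodendrocyte precursor-like (OPC-like) and 315, 346 and 187 microglia-like cells in the WT, nestin-Cre and Emx1-Cre libraries, in this order here and below. Of the RGL-like cells 42.5% to 48.7% led by a single marker, with astrocyte-like the next class, so the border between these classes is a range. A second way to place cells, by the nearest mean profile, kept 65.5% of gated WT neuroblast-like cells against 91.7% in each mutant. The libraries shared 11 to 23 barcodes in pairs. Levels in a class are given in CPM, the UMIs of a gene per 1000000 UMIs summed over the cells of that class. Larp7 stood at 66.3, 11.6 and 9.80 CPM in RGL-like cells and at 58.6, 41.4 and 49.6 in microglia-like cells, a lineage that neither Cre is made to reach. A 3′ tag does not read the deleted exon, so these Larp7 levels are no check of the deletion itself.

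With 1 library per genotype no test between genotypes was possible in the P7 data. Levels are given in CPM with exact 95% Poisson intervals in brackets that cover counting error only. A difference between genotypes was counted where it reached 1.5-fold with at least 100 UMIs in the pair of libraries, and both mutants are compared with the same WT library.

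Among the 6 larger classes, Wnt8b was highest in RGL-like cells and the ligands Wnt7a and Wnt7b in astrocyte-like cells. A small group of Cajal-Retzius-like cells held more Wnt7b than astrocyte-like cells in the nestin-Cre library, while the intervals of these classes overlapped in the WT and Emx1-Cre libraries. Wnt8b stood at 60.8 [52.2, 70.5], 56.5 [48.3, 65.6] and 44.0 [37.2, 51.6] CPM in RGL-like cells. In nIPC-like cells it stood at 16.2, 8.72 and 10.9 and in neuroblast-like cells at 5.34, 1.58 and 1.94. Its level thus stepped down along the neuronal lineage in every library, by 3.76-, 6.48- and 4.02-fold from RGL-like to nIPC-like cells. Astrocyte-like cells were at 11.8, 14.2 and 10.2, 3.98- to 5.15-fold under RGL-like cells. In microglia-like cells, which should lack the gene, it had 2, 0 and 0 UMIs, and 3 UMIs there would be 3.82, 2.70 and 4.96 CPM. The neuroblast-like levels of both mutants lay below these limits. The WT neuroblast-like level, 5.34 [3.83, 7.25], lay above its limit but overlapped the 2.55 [0.31, 9.20] of WT microglia-like cells. The neuroblast-like level therefore cannot be set apart from RNA of other cells.

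Wnt7a, a ligand that also acts on the vessels of the central nervous system, stood at 35.7 [29.5, 42.9], 36.5 [29.2, 45.2] and 31.5 [25.5, 38.5] CPM in astrocyte-like cells. RGL-like cells were at 17.5, 18.3 and 20.8, OPC-like cells at 14.5, 13.2 and 12.9, and nIPC-like cells at 2.66, 1.39 and 2.68, where 10, 4 and 12 UMIs were counted. Astrocyte-like cells were above RGL-like cells by 2.04-, 2.00- and 1.52-fold, and RGL-like and OPC-like levels overlapped within their intervals. In the Emx1-Cre library the RGL-like interval of Wnt7a, [16.2, 26.3], also overlapped the astrocyte-like interval. Wnt7b, the closest relative of Wnt7a, stood at 44.5 [37.5, 52.4], 49.0 [40.4, 58.9] and 47.0 [39.6, 55.3] in astrocyte-like cells. It was at 15.8, 27.2 and 19.9 in RGL-like, 20.0, 34.0 and 37.6 in OPC-like, 8.23, 10.5 and 9.82 in nIPC-like and 6.90, 9.09 and 8.39 in neuroblast-like cells. The OPC-like intervals of the nestin-Cre and Emx1-Cre libraries, [23.1, 48.3] and [26.2, 52.3], overlapped those of astrocyte-like cells. The Cajal-Retzius-like cells, early neurons marked by Reln, held Wnt7b at 140 [108, 178] in the nestin-Cre library (83 cells) and 87.9 [49.2, 145] in the Emx1-Cre library (25 cells), and at 2 UMIs in the 15 WT cells. Wnt7a was at 0 UMIs in all 3 of these Cajal-Retzius-like groups. The 101 WT endothelial-like cells, which are targets and not sources of these ligands, held 0 UMIs of Wnt8b, Wnt7a and Wnt7b, which by the limit of 3 counts allows up to 9.80 CPM.

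Among the 6 larger classes both secreted inhibitors were highest in RGL-like cells. Frzb, also called sFRP3, stood at 91.8 [81.1, 103], 93.0 [82.4, 105] and 101 [90.5, 112] CPM there, against 9.56, 6.97 and 9.60 in nIPC-like and 24.6, 38.7 and 31.9 in astrocyte-like cells. The nIPC-like levels, from 36, 20 and 43 UMIs, overlapped the 7.64 [2.80, 16.6] of WT microglia-like cells, so no fold is given for this step, and the WT levels of nIPC-like and neuroblast-like cells (8.73) overlapped within their intervals. Sfrp1 declined stepwise along the neuronal lineage. It stood at 120 [108, 133], 165 [151, 180] and 150 [137, 164] in RGL-like cells, 57.9, 68.4 and 71.4 in nIPC-like cells and 36.5, 43.9 and 33.1 in neuroblast-like cells, steps of 2.07- to 2.42-fold and 1.56- to 2.16-fold. Astrocyte-like cells (36.1, 50.3 and 40.7) and OPC-like cells (49.1, 47.2 and 37.6) overlapped within each library. The ependymal-like cells, 9 and 6 in the mutant libraries, held Sfrp1 at 229 [133, 366] and 180 [66.2, 393] from 17 and 6 UMIs, with intervals that overlap those of RGL-like cells. Microglia-like cells gave 15.3 [7.90, 26.7] in the WT library and 2.70 and 6.62 in the mutants.

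The 3 DNA-binding factors differed in where they were found. Tcf7l1, which acts mostly as a repressor, stood at 34.7 [28.3, 42.2], 37.9 [31.2, 45.5] and 37.1 [30.9, 44.2] CPM in RGL-like cells and at nearly the same level in astrocyte-like cells (35.4, 38.3 and 37.1). It was far lower in nIPC-like cells, at 3.45, 2.44 and 4.24 from 13, 7 and 19 UMIs, and at 5.73, 4.55 and 6.99 in neuroblast-like cells. Microglia-like cells held 2, 0 and 1 UMIs of it, where 3 UMIs would be 3.82, 2.70 and 4.96 CPM, so the nIPC-like levels, all below these limits, cannot be set apart from RNA of other cells. Lef1 was kept on through the neuronal lineage. Its levels were 57.4 [49.0, 66.8], 85.7 [75.6, 96.8] and 84.7 [75.1, 95.1] in RGL-like cells, 36.9, 46.0 and 47.5 in nIPC-like cells and 33.0, 29.4 and 30.5 in neuroblast-like cells. In the WT library the nIPC-like, neuroblast-like and astrocyte-like (32.0) levels of Lef1 overlapped within their intervals. OPC-like cells had 5.46, 3.30 and 6.45 from 3, 3 and 6 UMIs, and endothelial-like cells had 114 [79.6, 159], 224 [145, 331] and 118 [63.1, 203] from 101, 23 and 24 cells. Tcf7l2, which also serves the oligodendrocyte lineage, was at 63.6 [44.3, 88.5], 71.4 [55.1, 91.0] and 64.5 [49.2, 83.0] in OPC-like cells and at 71.9 [45.0, 109] in WT endothelial-like cells. RGL-like cells were at 35.8, 49.5 and 43.1, astrocyte-like cells at 46.3, 38.7 and 43.4, and neuroblast-like cells at 21.2, 18.8 and 15.4. The OPC-like interval overlapped the astrocyte-like one in WT [39.2, 54.4] and Emx1-Cre [36.3, 51.4], and the RGL-like one in nestin-Cre [41.9, 58.1]. Tcf7l2 was also found in microglia-like cells, at 33.1 [21.6, 48.5], 41.4 [30.3, 55.3] and 19.8 [10.3, 34.7] from 26, 46 and 12 UMIs. In the WT microglia-like cells Sfrp1, Lef1 and Frzb had 12, 9 and 6 UMIs, and each of the other 5 members had 1 to 3.

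Axin2, the feedback target, was spread over neural and vascular classes. It stood at 34.0 [27.7, 41.4], 34.6 [28.2, 41.9] and 35.9 [29.8, 42.9] CPM in RGL-like cells, 31.4, 53.7 and 36.8 in astrocyte-like cells and 32.7, 35.1 and 36.6 in OPC-like cells. WT endothelial-like cells were at 35.9 [17.9, 64.3] and WT leptomeningeal-like cells, 27 in number, at 103 [33.4, 240]. In microglia-like cells it was at 1.27, 1.80 and 3.31. Neuroblast-like cells had 16.8 [14.0, 20.0], 21.3 [18.7, 24.3] and 17.9 [15.2, 20.8].

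**Figure D1:**
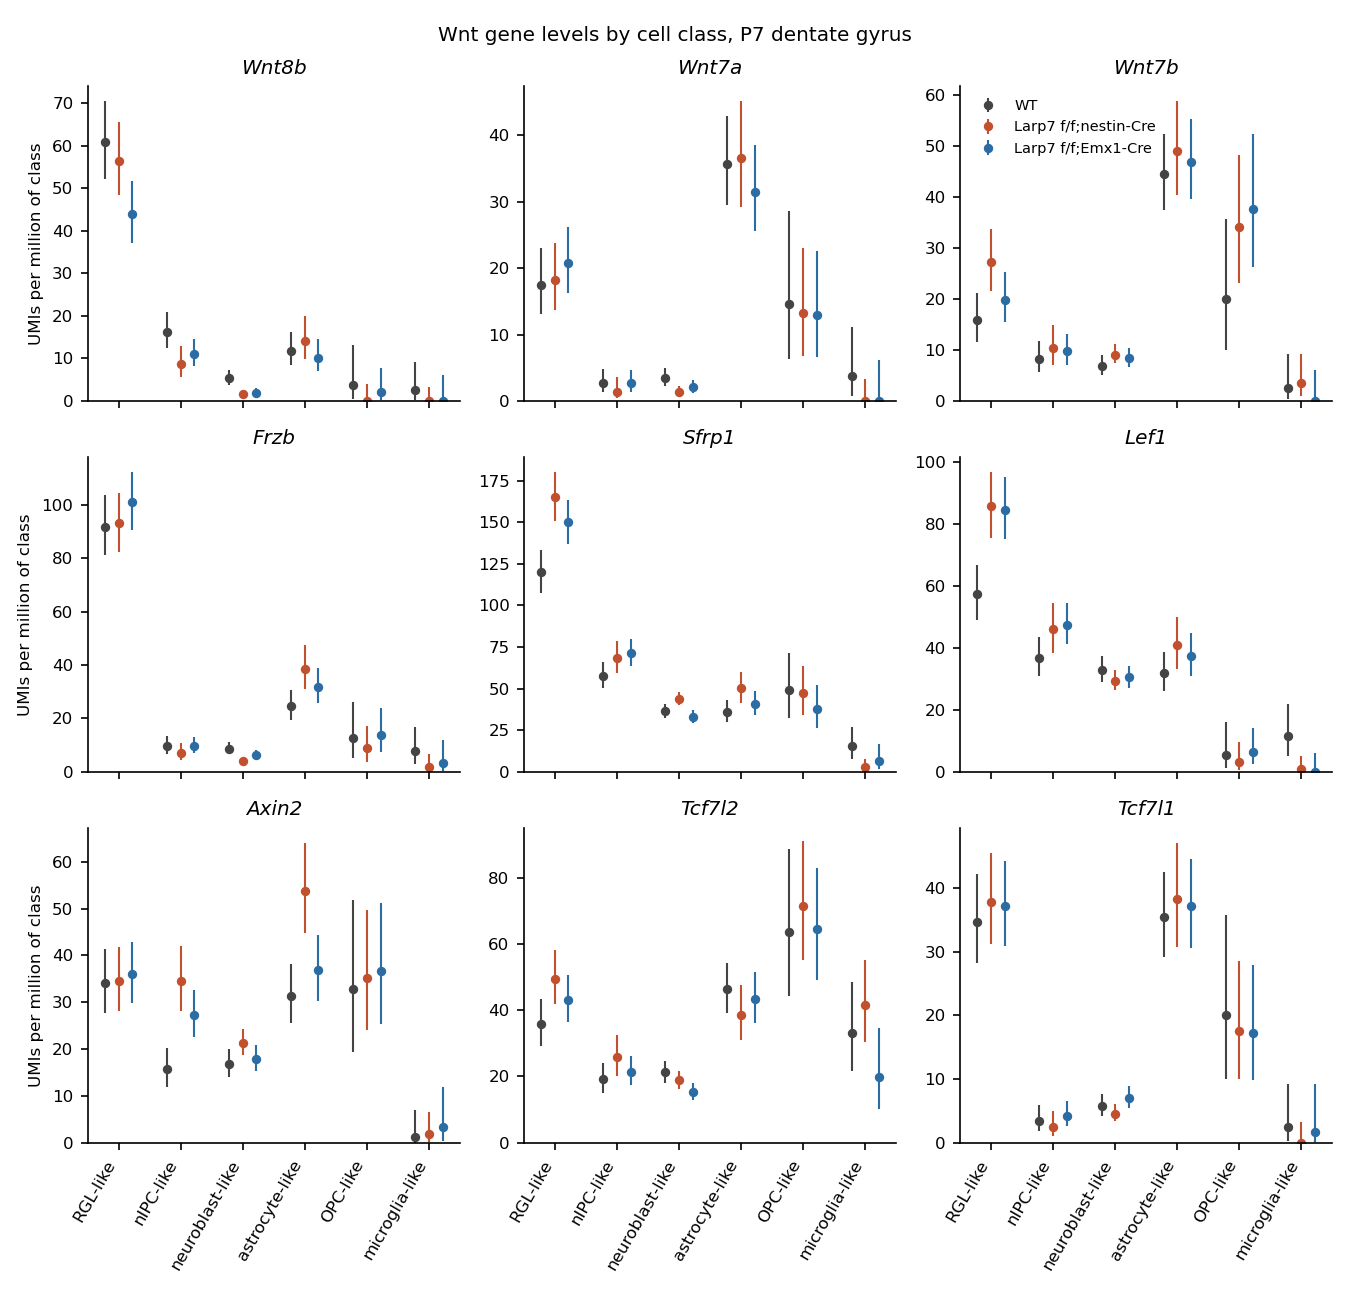
Each panel plots 1 gene as CPM (y axis, from 0) in 6 marker-gated classes (x axis), with a point per library and bars for exact 95% Poisson intervals (counting error only). By their points, Wnt8b, Frzb and Sfrp1 are highest in RGL-like cells, Wnt7a and Wnt7b in astrocyte-like cells and Tcf7l2 in OPC-like cells of all 3 libraries. The bars of the highest class overlap another for Tcf7l2 in every library, Wnt7b in both mutants and Wnt7a in the Emx1-Cre library. In nIPC-like cells Axin2 is at 15.7 in WT and 34.5 and 27.2 in the mutants.

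Within the RGL-like class, cells were split by whether at least 2 of 8 cell cycle genes (such as Mki67 and Top2a) were detected, giving 294, 157 and 234 dividing and 572, 550 and 523 other cells. Detection depends on depth, and RGL-like cells had medians of 3082, 3968 and 3921 UMIs. A cell counted as other is therefore not shown to be non-dividing, and the part of depth in the split was not tested. Frzb was higher in the other cells, at 116 [100, 134], 104 [90.9, 119] and 132 [116, 149] CPM, than in dividing cells, at 60.9 [48.1, 76.0], 67.8 [52.1, 86.7] and 58.8 [46.9, 72.7], so that the intervals of the 2 states were apart in each library. Sfrp1 was 1.58-, 1.37- and 1.59-fold higher in the other cells. Tcf7l1 stood at 43.0, 43.3 and 48.5 in the other cells and at 24.2, 25.8 and 21.7 in dividing cells. Wnt8b was also on the higher side in the other cells, by 1.39-, 1.55- and 1.54-fold, with intervals that overlapped in all 3 libraries. Lef1 did not follow one pattern. In the WT library dividing and other cells had 57.0 [44.7, 71.6] and 57.7 [46.7, 70.7], whereas the other cells had 99.98 [86.9, 115] against 53.8 [39.9, 70.9] in the nestin-Cre library and 99.1 [85.6, 114] against 65.0 [52.5, 79.7] in the Emx1-Cre library. Axin2 differed little between the states, at 30.4, 28.0 and 32.9 in dividing and 36.9, 37.5 and 38.2 in other cells.

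**Figure D2:**
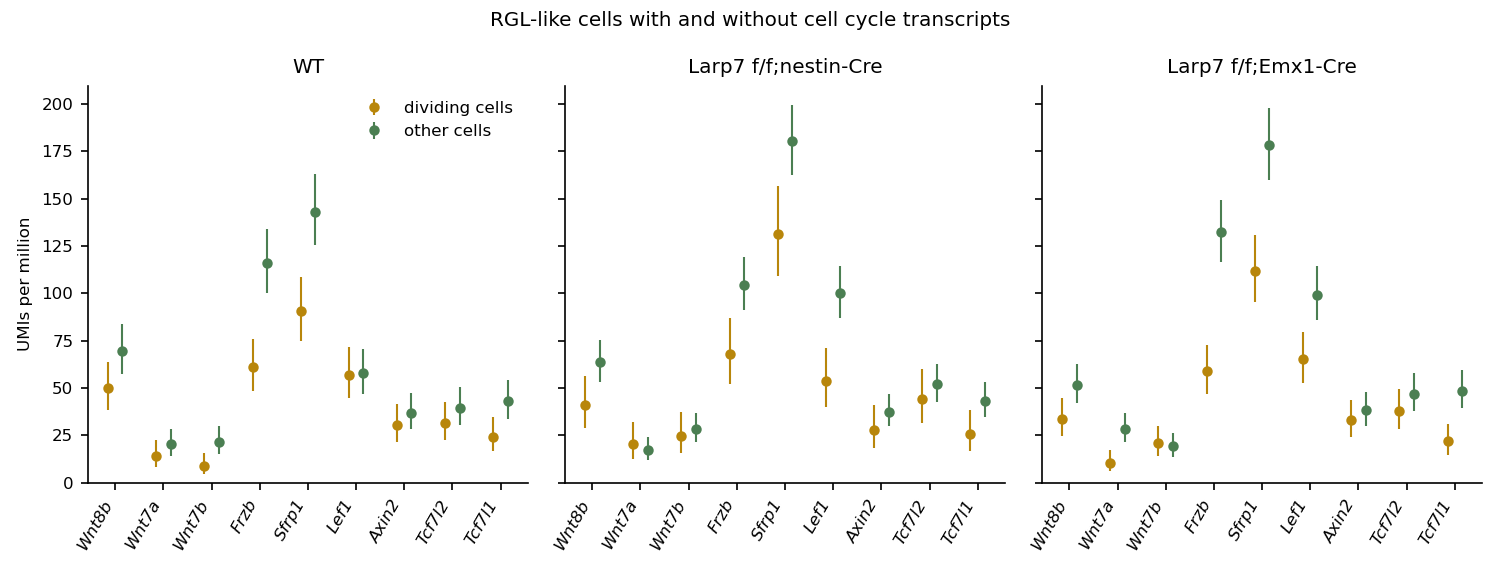
RGL-like cells of each library split into dividing cells (at least 2 of 8 cell cycle genes detected) and other cells. The y axis is CPM from 0, the x axis lists the 9 genes, and bars are exact 95% Poisson intervals. Frzb lies higher in the other cells of every library, and Lef1 only in those of the mutants, at 99.98 and 99.1 against 57.7 in WT.

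The question put to the mutants was whether loss of Larp7 altered these genes in stem cells, progenitors, neuroblasts and astrocytes. In RGL-like cells 9 of 9 members had enough UMIs, and 1 was at least 1.5-fold from WT in the nestin-Cre library (Wnt7b, 1.72-fold higher) and 0 in the Emx1-Cre library. Over all genes 12.3% of 7446 and 6.11% of 7582 were past that fold. Wnt7b had 46, 82 and 67 UMIs there, with a log2 ratio to WT of 0.78 [0.25, 1.34] in nestin-Cre and 0.33 [-0.23, 0.91] in Emx1-Cre cells. With a lead of 2 markers its nestin-Cre log2 ratio was 0.11, and in cells thinned to 1500 UMIs each it was 1.06 on 46 UMIs. Among dividing RGL-like cells Wnt7b was 2.88- and 2.44-fold the WT level, on 11, 23 and 30 UMIs, and among the other RGL-like cells 1.32- and 0.89-fold, on 35, 59 and 37 UMIs. Lef1 lay just under the fold in both mutants, 1.49-fold higher in nestin-Cre and 1.47-fold higher in Emx1-Cre cells, with log2 ratios of 0.58 [0.29, 0.87] and 0.56 [0.28, 0.84]. Among the other RGL-like cells Lef1 was 1.73- and 1.72-fold the WT level, and among dividing cells 0.94- and 1.14-fold. Sfrp1 was 1.38- and 1.25-fold the WT level, with log2 ratios of 0.46 [0.26, 0.66] and 0.32 [0.12, 0.52], and Wnt8b was 1.08- and 1.38-fold lower. Tcf7l2 was 1.38- and 1.20-fold the WT level, with log2 ratios of 0.47 [0.10, 0.84] and 0.27 [-0.10, 0.65], and Wnt7a 1.04- and 1.19-fold. Frzb, Axin2 and Tcf7l1 were within 1.10-fold of WT in both mutants. The members' median log2 ratio was 0.13 in nestin-Cre and 0.25 in Emx1-Cre cells, and that of all genes 0.06 in both.

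In nIPC-like cells Axin2 was higher in both mutants. It had 59, 99 and 122 UMIs, that is 15.7 [11.9, 20.2], 34.5 [28.1, 42.0] and 27.2 [22.6, 32.5] CPM, and neither mutant interval reached the WT interval. The log2 ratio to WT was 1.14 [0.66, 1.63] in nestin-Cre and 0.80 [0.34, 1.27] in Emx1-Cre cells. Axin2 was the only member past the fold, 1 of 4 with enough UMIs in nestin-Cre and 1 of 5 in Emx1-Cre cells, where 10.3% of 7403 and 6.06% of 8104 genes were past it. The difference was seen in dividing nIPC-like cells (16.2, 33.4 and 27.1) and in the other nIPC-like cells (14.5, 37.2 and 27.5). Under other gates and depths the Axin2 log2 ratio lay between 0.60 and 2.03 in nestin-Cre and between 0.50 and 1.49 in Emx1-Cre cells. The highest values came from thinned cells, on 41 and 42 UMIs, and the lowest from the nearest-profile assignment, under which the Emx1-Cre difference was below 1.5-fold and Wnt8b was past the fold as lower in both mutants (-1.04 and -0.66). Sfrp1 and Lef1 stood 1.18- to 1.29-fold above WT in both mutants. Tcf7l2 was 1.35- and 1.12-fold the WT level, with log2 ratios of 0.43 [-0.06, 0.92] and 0.16 [-0.29, 0.63]. Wnt8b was 1.86- and 1.48-fold lower, on 61, 25 and 49 UMIs, with log2 ratios of -0.89 [-1.63, -0.20] and -0.57 [-1.14, -0.00].

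In neuroblast-like cells the member past the fold was Frzb in the nestin-Cre library. Frzb had 67, 42 and 60 UMIs, that is 8.73 [6.76, 11.1], 3.90 [2.81, 5.27] and 6.45 [4.92, 8.31] CPM, a log2 ratio of -1.16 [-1.76, -0.59] in nestin-Cre and -0.44 [-0.96, 0.09] in Emx1-Cre cells. It was 1 of 6 members with enough UMIs in nestin-Cre cells, and in Emx1-Cre cells 0 of 7 were past the fold, against 21.1% of 10125 and 13.5% of 9972 genes. These Frzb levels were near the 7.64 [2.80, 16.6] of WT microglia-like cells. Microglia-like cells of the nestin-Cre and Emx1-Cre libraries had 1.80 [0.22, 6.51] and 3.31 [0.40, 11.9], also below WT, from 6, 2 and 2 UMIs in the 3 libraries. The part of such background RNA in the neuroblast-like difference was not tested. After thinning, which left out 1270 of 3253 WT cells, the nestin-Cre log2 ratio was -1.23 on 43 UMIs. With a lead of 2 markers, by nearest profile and in cells placed alike by both, the log2 ratio of Frzb was -0.87, -1.25 and -0.80 on 70, 84 and 54 UMIs, too few to be counted, and the 1 member past the fold was instead Wnt7b, higher in nestin-Cre cells at 0.61, 0.75 and 0.70. Sfrp1, Lef1, Axin2, Tcf7l2 and Wnt7b were within 1.38-fold of WT in both mutants. Wnt8b, on 41, 17 and 18 UMIs, had log2 ratios of -1.76 [-2.67, -0.91] in nestin-Cre and -1.46 [-2.35, -0.63] in Emx1-Cre cells. Wnt7a, on 26, 15 and 19 UMIs, had -1.28 [-2.31, -0.31] and -0.73 [-1.66, 0.18]. Both genes had too few UMIs to be counted, and the Wnt8b level here was not set apart from RNA of other cells.

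In astrocyte-like cells Axin2 and Frzb were past the fold in the nestin-Cre library. Axin2 had 101, 125 and 112 UMIs, that is 31.4 [25.6, 38.1], 53.7 [44.7, 64.0] and 36.8 [30.3, 44.3] CPM, with a log2 ratio of 0.78 [0.39, 1.17] in nestin-Cre and 0.23 [-0.17, 0.63] in Emx1-Cre cells. Frzb had log2 ratios of 0.66 [0.20, 1.11] and 0.38 [-0.07, 0.82]. These were 2 of 8 members in nestin-Cre and 0 of 8 in Emx1-Cre cells, where 7.59% of 6878 and 4.93% of 7288 genes were past the fold. Sfrp1 was 1.39- and 1.13-fold the WT level, with log2 ratios of 0.48 [0.10, 0.86] and 0.18 [-0.20, 0.55], and Lef1 1.28- and 1.17-fold. Wnt7a, Wnt7b, Tcf7l1 and Tcf7l2 were within 1.20-fold of WT in both mutants. After thinning, the nestin-Cre log2 ratios of Axin2 and Frzb were 0.59 and 0.65, on 87 and 62 UMIs, and by nearest profile they were 0.44 and 0.47, below the fold.

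**Figure D3:**
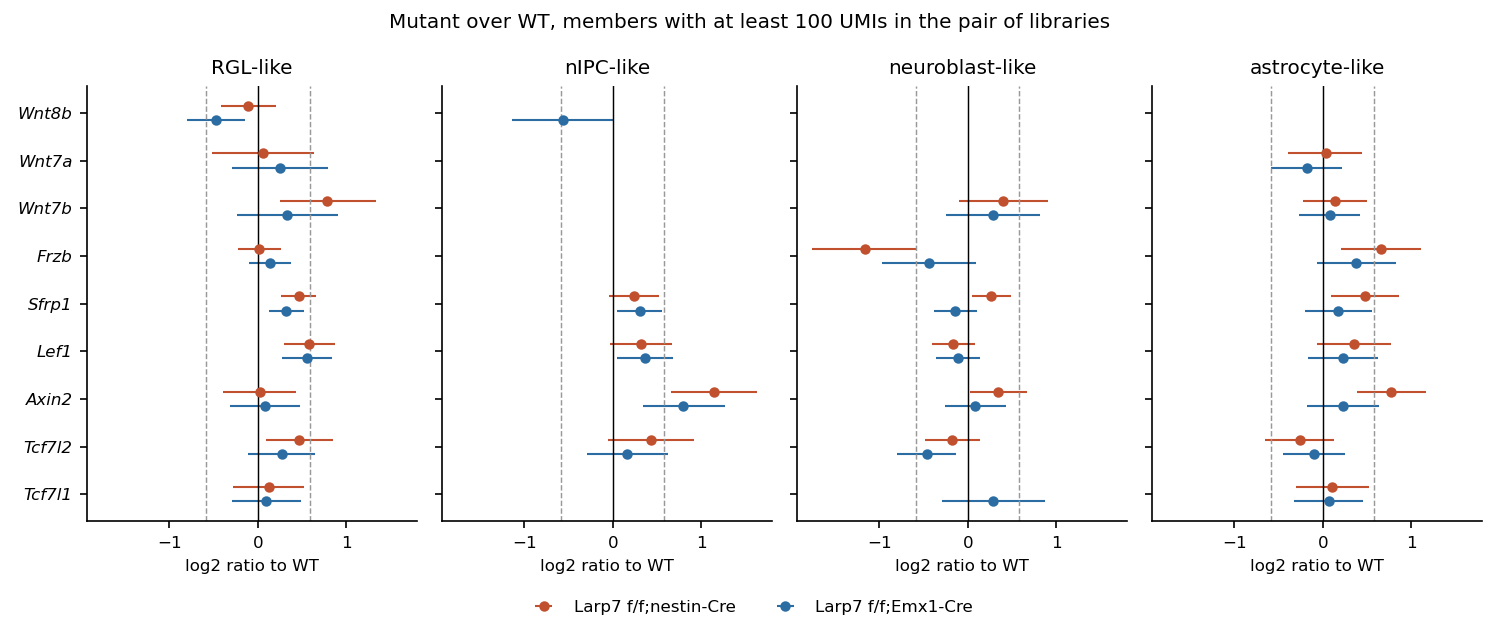
Log2 ratio of each mutant library to WT (x axis) for the members with at least 100 UMIs in the pair, in 4 classes. Bars are 95% intervals from counting error only, dashed lines mark 1.5-fold, and both ratios share the WT library. Axin2 in nIPC-like cells lies past the line for both mutants, at 1.14 and 0.80, and Lef1 in RGL-like cells lies at it, at 0.58 and 0.56.

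The other genes of the pathway were read from a list of 95 that includes the 9 members. In RGL-like cells 43 had enough UMIs, of which 7 were higher and 0 lower in nestin-Cre cells, where 694 of all 7446 genes were higher and 224 lower. Their Emx1-Cre counterparts had 2 higher and 0 lower among the 43, against 356 and 107 of 7582. In nIPC-like cells 4 of 36 were higher and 1 lower in nestin-Cre (449 and 314 of 7403 over all genes), and 2 of 38 higher and 0 lower in Emx1-Cre cells (343 and 148 of 8104). In neuroblast-like cells the counts were 7 higher and 3 lower of 49 in nestin-Cre (1047 and 1087 of 10125), near the background share, and 2 higher and 1 lower of 47 in Emx1-Cre cells (726 and 624 of 9972). In astrocyte-like cells 4 of 41 were higher and 0 lower in nestin-Cre (357 and 165 of 6878), and 0 of 42 were past the fold in Emx1-Cre cells (226 and 133 of 7288). The list's median log2 ratio over these 8 comparisons ran from 0.08 to 0.20, and that of all genes from -0.01 to 0.06. The list genes named next were chosen for being past the fold in the same direction in both mutants. Both comparisons share the WT library, so this agreement is part of the choice and nothing is read from it. The receptor gene Fzd8 stood at 12.4, 25.2 and 24.4 CPM and the co-repressor gene Tle3 at 26.1, 47.2 and 45.1 in RGL-like cells. Dkk3, of the Dickkopf family of secreted proteins, stood at 11.4, 28.6 and 22.5 in nIPC-like and 24.1, 40.6 and 37.9 in neuroblast-like cells. The receptor gene Fzd7 was at 4.69, 8.35 and 10.1 in neuroblast-like cells. Ccnd1, a G1 cyclin gene that Wnt signalling can induce, was lower in the mutants, at 36.3, 23.4 and 21.9 in neuroblast-like cells.

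To describe what each member's pattern resembled, its log2(CPM + 1) was correlated with that of 12836 genes over the 21 class and library profiles with at least 50 cells. These profiles share libraries and classes, so the coefficients are descriptions. Wnt8b was most like Tfap2c (Pearson r = 0.93), which is itself a gate marker of RGL-like cells, then Ndufc2 and Fam210b (both 0.91). Wnt7a was most like Cmtm5 (0.96), Fgfrl1 and Pawr (both 0.95), and Wnt7b most like Itfg1, Hebp2 and Epb41l4a (0.93, 0.92 and 0.92). Frzb was most like Lrrc1 (0.94), Pawr and 2810459M11Rik (both 0.92), and Sfrp1 most like Scrn1, Fam120aos and Clip4 (each 0.94). Lef1 was most like Lama2 (0.96), 2700046A07Rik (0.93) and Ier5l (0.91), and Axin2 most like Plod2, Mpdz and P3h4 (0.94, 0.94 and 0.92). Tcf7l1 was most like Por, Tspan15 and Bhlhe40 (0.96, 0.96 and 0.95). Tcf7l2 had the weakest match, with Ccnd1 (0.87), Svil and Wwc2 (both 0.86).

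In the neurospheres, the comparison asked whether the same genes differed between WT and Larp7 KO cultures. The 5 libraries held 59821311 to 62474602 counts. CPM here is read counts of a gene per 1000000 counts of a library, after the library total was scaled by the TMM factor of edgeR. Larp7 stood at 42.8 and 35.0 CPM in WT and 4.17, 6.34 and 4.39 in Larp7 KO libraries, a log2 fold change of -2.97 (SE 0.21, edgeR quasi-likelihood test with Benjamini-Hochberg adjustment, adjusted p = 0.0198). The cultures expressed the precursor genes Nes (577 to 734 CPM) and Sox2 (341 to 428) and the oligodendrocyte precursor gene Pdgfra, which stood at 820 and 765 in WT and 1115, 1266 and 1133 in Larp7 KO libraries. The nIPC gene Eomes was at 0.24 to 0.60, and the microglial gene Cx3cr1 and the endothelial gene Cldn5 were at 0 counts.

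None of the 9 members passed the adjusted threshold of 0.05 in the edgeR test, where 0.0338% of 17753 genes passed, and in DESeq2 0 of the 7 with an adjusted p passed. At an unadjusted p under 0.05 the count was 4 of 9 (Sfrp1 higher, Wnt7a, Frzb and Tcf7l1 lower in Larp7 KO), where 21.7% of all genes had such a p. For 5 of 9 members the libraries of the 2 groups did not overlap, as they did not for 42.5% of all genes. Frzb stood at 5.23 and 7.33 CPM in WT and 4.33, 3.84 and 3.27 in Larp7 KO libraries, and every WT library was above every Larp7 KO library (log2 fold change -0.72, SE 0.22, edgeR adjusted p = 0.1504). Sfrp1 stood at 12.8 and 13.4 in WT and 16.5, 16.1 and 15.9 in Larp7 KO libraries, the groups again apart and the inhibitor on the higher side (0.30, SE 0.10, edgeR adjusted p = 0.166). The log2 fold changes of the 2 secreted inhibitors thus had opposite signs.

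Tcf7l1 stood at 30.3 and 35.6 CPM in WT and 26.7, 26.7 and 25.6 in Larp7 KO libraries (log2 fold change -0.32, SE 0.10, edgeR adjusted p = 0.157). Tcf7l2 stood at 22.4 and 19.2 in WT and 24.1, 25.7 and 24.0 in Larp7 KO libraries (0.24, SE 0.11, edgeR adjusted p = 0.247). The groups did not overlap for either factor, and the signs were opposite. Axin2 was at 53.4 and 62.7 in WT and 54.5, 41.2 and 41.0 in Larp7 KO libraries, where Larp7 KO replicate 1 lay between the WT libraries (-0.35, SE 0.15, edgeR adjusted p = 0.242). Wnt7a was at 63.1 and 70.2 in WT and 60.6, 54.4 and 57.2 in Larp7 KO libraries (-0.21, SE 0.09, edgeR adjusted p = 0.2202). Wnt7b overlapped, at 227 and 198 in WT and 220, 176 and 199 in Larp7 KO libraries (-0.10, SE 0.11, edgeR adjusted p = 0.631). Lef1 and Wnt8b were close to absent, with 20 and 41 counts in WT and 0, 28 and 0 in Larp7 KO libraries for Lef1, and 0 and 20 against 2, 0 and 18 for Wnt8b.

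**Figure D4:**
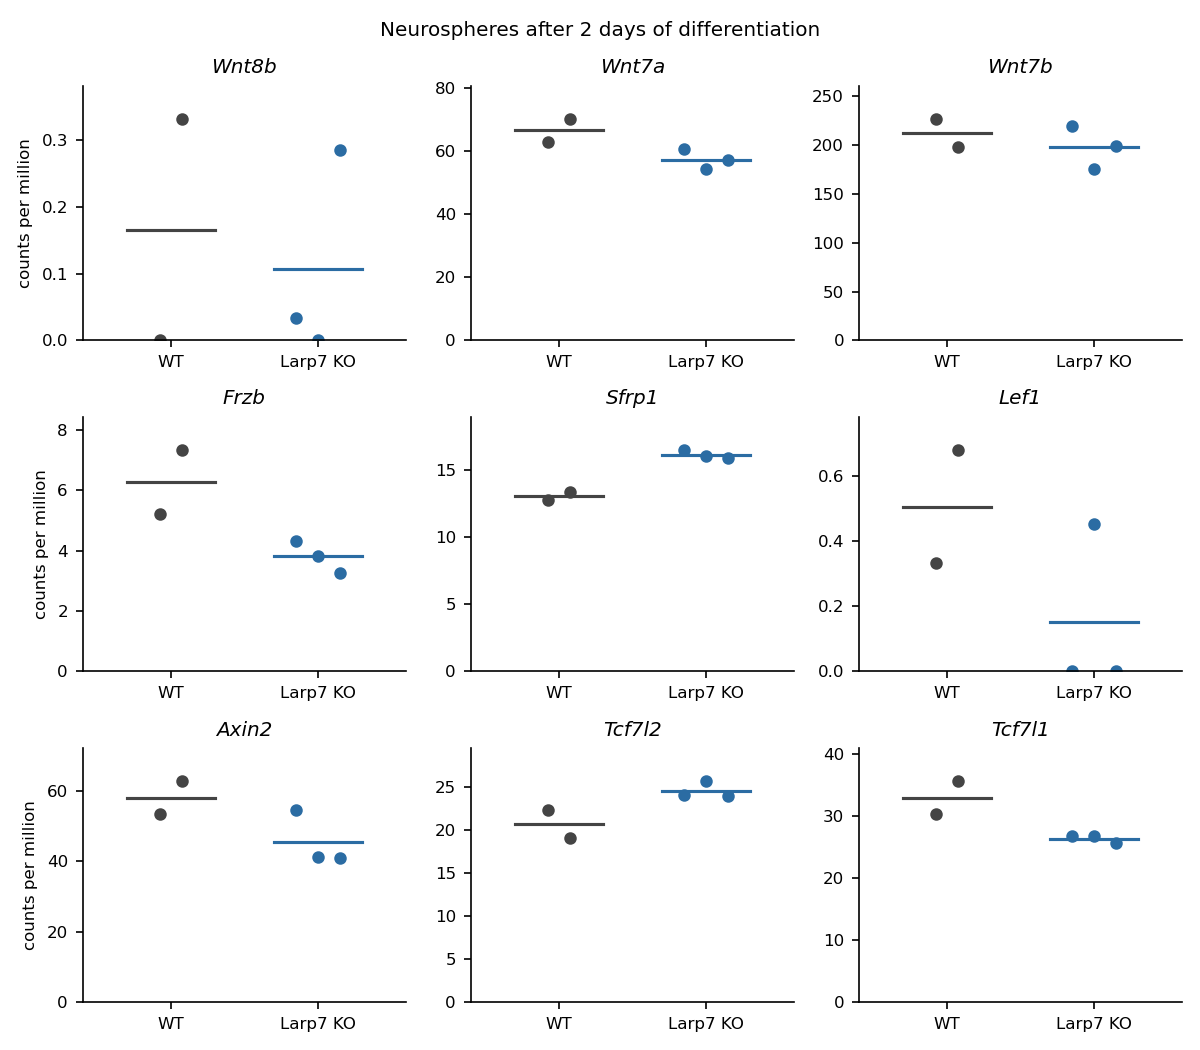
CPM (y axis, from 0, a separate scale for each gene) of the 9 genes in the 2 WT and 3 Larp7 KO neurosphere libraries, with a point per library and a line at the group mean. The groups are apart for Wnt7a, Frzb, Sfrp1, Tcf7l1 and Tcf7l2 and overlap for Wnt8b, Wnt7b, Lef1 and Axin2.

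Of the 95 listed genes 78 could be tested, and 0 passed in the edgeR test. At an unadjusted p under 0.05 there were 27 (34.6%, 15 higher and 12 lower in Larp7 KO), beside the 21.7% of all genes. In DESeq2 9 of the 71 with an adjusted p passed (12.7%, 5 higher and 4 lower), near the 10.7% of all 14810 genes. In edgeR the median log2 fold change of the 78 tested list genes was 0.05, that of the members -0.32 and that of all genes 0.01. The members' median includes Lef1 (-1.73) and Wnt8b (-0.62), both close to absent in these cultures. By role the medians ran from -0.32 for the 3 tested genes of ligand secretion and R-spondins to 0.32 for the 9 tested secreted inhibitors, with the 21 receptors at 0.13, the 10 ligands at -0.08 and the 9 feedback targets at -0.10. The inhibitor median was the value of Notum, which had only 10 to 33 counts per library. Each fit without a WT replicate left 1 WT library, so its spread came from the Larp7 KO libraries alone and only fold changes are given here. Without WT replicate 1, the log2 fold change of Tcf7l1 was -0.43. Without WT replicate 2, the log2 fold change was -0.20 for Tcf7l1, -0.45 for Frzb, -0.13 for Wnt7a, -0.23 for Axin2 and 0.14 for Tcf7l2. These values without WT replicate 2 were each more than 1.5 times closer to 0 than with all libraries. In the same fit Sfrp1 and Wnt7b lay further from 0, at 0.34 and -0.19 against 0.30 and -0.10 with all libraries. In these bulk cultures fewer cells of a type and less RNA per cell cannot be told apart, and the higher Pdgfra in Larp7 KO libraries (log2 fold change 0.56, edgeR adjusted p = 0.0933) stands beside all of these values, its part in them not tested.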

How the data were processed

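The authors deposited UMI counts per gene and barcode for 3 P7 dentate gyrus libraries (Cell Ranger 4.0.0 per the file headers) and read counts per gene for neurospheres (mm10 per the submitters' processing notes, reads placed on an Ensembl transcriptome with Minimap2). Groups came from the sample titles. In the neurosphere table a further 5 columns were not used, and ATAC-seq and CUT&Tag samples were not analysed here. Cells with more than 500 genes and under 15% mitochondrial UMIs were gated by 15 classes of 8 markers each: at least 3 detected, 1 more than any other class, and no class of another compartment at 3. No doublet caller was run. Cells that showed markers of 2 compartments (2.08% to 3.58%) were left out. UMIs were summed per class and library. Intervals and the limit of 3 counts cover counting error only.

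Neurosphere counts were tested with edgeR 4.0.16 (R 4.3.3; TMM, filterByExpr, quasi-likelihood test, Benjamini-Hochberg over 17753 genes), with DESeq2 1.42.0 as alternative; SE is the log2 fold change over the square root of F. The study gives its n as mice or independent experiments, and the labels do not say which animal or culture each library came from, so p-values measure the spread between these libraries. The scripts were tested on simulated data: of 100 genes changed 2-fold among 17452 in the simulated neurosphere comparison 56% were recovered, and of 100 changed 4-fold 100%. The 9 members are named throughout; other genes of the 95-gene list are named when at least 1.5-fold from WT in the same direction in both mutants with at least 100 UMIs, or past adjusted p 0.05 in neurospheres, and the 3 genes most similar to each member. Members, lists, markers and tests were chosen with earlier results of these data known. Python 3.11.15, numpy 2.4.6, scipy 1.17.1 and pandas 2.3.3 were used.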

Additional observations from a re-analysis of the deposited data

How the results depend on the processing

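In the neurospheres, the 6 genes past the threshold became 1586 in DESeq2, 3 with no filter on low counts and 0 to 1905 when each library was left out in turn. The listed Wnt genes past it went from 0 to 9 in DESeq2 and lay between 0 and 11 when each library was left out. In DESeq2 these 9 were 12.7% of 71 listed genes, beside 10.7% of all 14810 genes. The upper ends of both ranges came from the fit without WT replicate 1, which left 1 WT library. The spread in that fit came from the Larp7 KO libraries alone, so nothing about the Wnt genes is read from its counts. Replicate numbers are not said to mark a shared litter or day, and same-numbered libraries correlated by 0.04 and 0.21 in their deviations. With a replicate block, 0 genes passed. Of 78 refitted fold changes of members with an adjusted p 75 kept their direction and side of the threshold. When 1 library was left out, the Wnt7b value lay between -0.19 (without WT replicate 2) and 0.0032 (without WT replicate 1). The Wnt8b value lay between -1.61 (without WT replicate 1) and 5.735 (without WT replicate 2, its remaining WT library having 0 counts). That of Tcf7l1 lay between -0.43 (without WT replicate 1) and -0.20 (without WT replicate 2).

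In the P7 libraries, 309 of 336 recomputed member ratios stayed within the counting interval of the reported ratio or, for mean log-normalized values, kept its direction. Which members were past 1.5-fold moved with the gate, also where their number did not. No share over all genes is given for these other settings, so the counts below are not read as a result about the members. By nearest profile it became 3 in RGL-like nestin-Cre cells (Wnt7b, Sfrp1 and Lef1 higher), 1 in RGL-like Emx1-Cre cells (Lef1 higher), 3 in nIPC-like nestin-Cre cells (Axin2 higher, Wnt8b and Frzb lower) and 1 in astrocyte-like cells of each mutant (Sfrp1 higher), and the 1 member of nIPC-like Emx1-Cre cells was Wnt8b, lower, in place of Axin2. In neuroblast-like nestin-Cre cells the 1 member turned from Frzb, lower, to Wnt7b, higher, by nearest profile, with a lead of 2 markers, and among cells that the gate and the nearest profile placed alike, an alternative added after seeing the data. With a lead of 2 markers it became 1 in RGL-like Emx1-Cre cells, 0 in nIPC-like nestin-Cre cells (2 members still had 100 UMIs) and 1 in astrocyte-like nestin-Cre cells, and in RGL-like cells of both mutants the member was Tcf7l2, higher. In cells placed alike it became 1 in RGL-like Emx1-Cre cells, where, as in nestin-Cre cells, the member was Lef1, higher, and in astrocyte-like nestin-Cre cells Sfrp1 took the place of Frzb. Thinned to 1500 UMIs it became 0 in nIPC-like cells of both mutants and in neuroblast-like and astrocyte-like nestin-Cre cells, where 0 to 4 members still had 100 UMIs. Thinned RGL-like Emx1-Cre cells had 1 (Wnt8b lower), RGL-like nestin-Cre cells 1 (Lef1 higher in place of Wnt7b) and astrocyte-like Emx1-Cre cells 1 (Sfrp1 higher). Ratios resting on under 100 UMIs are limited by depth.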
